A study of Mus musculus with 12 samples.

Results

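The potassium channel genes described here are Kcnk1, Kcnk2, Kcnk3, Kcnk9, Kcnj5, Kcnq1, Kcne4 and Kcnma1, which were grouped as channels of the adrenal zona glomerulosa (zG), the outer layer of the cortex that makes aldosterone. They are 8 of the 39017 genes counted, and they were selected by their symbols with earlier results of this same contrast known, so their values between the genotypes are a description with no test. RNA was sequenced from whole adrenals of 12 female mice, aged 10 to 11 weeks and kept on a mixed sv129-C57Bl/6 background. The 6 Ctrl mice had the genotype ASCre/+, and the 6 βCat-GOF mice were bigenic, ASCre/+ ::Ctnnb1fl(ex3)/+. Both groups thus carried Cre recombinase at the aldosterone synthase (AS, Cyp11b2) locus, although the titles call the controls wild type. In βCat-GOF mice the Cre acts in zG cells and their descendants and removes exon 3 of 1 Ctnnb1 allele, and the β-catenin that results lacks the phosphorylation sites that lead to its breakdown. Levels come from the whole gland, with medulla, capsule and vessels included, so the zone in which a channel was transcribed was not measured, and fewer cells of a type and less RNA per cell cannot be told apart.

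Zona glomerulosa cells hold a very negative membrane potential because potassium leaks out through channels that are open at rest. Angiotensin II and a rise in plasma potassium reduce that outward current, the cell depolarizes, voltage-gated calcium channels open, and calcium drives transcription of Cyp11b2 and the synthesis of aldosterone. Mutations in KCNJ5 that let sodium through the channel are a known cause of aldosterone-producing adenomas in people, and mice without the leak channels Kcnk3 and Kcnk9 make too much aldosterone.

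The promoter sequences of Kcne4 and Kcnk2 are shown because they were the only promoters of these genes, among those searched, that held a core TCF/LEF motif, the letters through which β-catenin's DNA-binding partners recognize their sites. The search covered both strands from 250 bases before to 50 bases after each annotated start in RefSeq (GRCm38.p6) and took CTTTGAT or CTTTGAA as the motif. The table held 8 promoters for 5 of the 8 genes, namely Kcne4, Kcnk1, Kcnk2, Kcnj5 and Kcnma1. A match was found in 2 of these 8 promoters and in 2842 of 32851 promoters overall (8.65%). The capitals mark the match, which begins 239 bases before the start in Kcne4 and 221 bases before it in Kcnk2, and each sequence is written 5′ to 3′ on the strand of its gene.
Kcne4 promoter, chr1:78816661-78816960, plus strand: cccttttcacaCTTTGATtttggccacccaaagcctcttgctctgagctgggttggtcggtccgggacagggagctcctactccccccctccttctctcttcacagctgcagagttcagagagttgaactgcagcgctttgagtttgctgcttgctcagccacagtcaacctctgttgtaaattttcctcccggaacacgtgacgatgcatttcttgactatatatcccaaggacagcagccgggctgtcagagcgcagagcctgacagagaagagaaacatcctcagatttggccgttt
Kcnk2 promoter, chr1:189402224-189402523, minus strand: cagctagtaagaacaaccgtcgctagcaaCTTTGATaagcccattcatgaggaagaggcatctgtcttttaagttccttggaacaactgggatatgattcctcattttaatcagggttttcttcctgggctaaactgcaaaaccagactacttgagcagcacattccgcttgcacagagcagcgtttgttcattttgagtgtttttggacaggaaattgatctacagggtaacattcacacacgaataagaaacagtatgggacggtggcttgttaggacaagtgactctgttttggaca
The 3 other Kcnk2 promoters in the table had no match. None of the 8 promoters held CAAGGTCA (SF-1), AAAGGTCA (the NBRE of NR4A receptors) or TGACGTCA (the CRE), which occurred in 1.56%, 1.51% and 1.79% of all promoters. Between the genotypes the log2 fold change was 0.74 for Kcne4 and -0.05 for Kcnk2, and a match of letters is not a bound site.

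The libraries held 14090378 to 25625494 counts on genes in Ctrl mice and 13484675 to 24951480 in βCat-GOF mice, and the group means did not differ detectably (exact permutation test, two-sided, p = 0.777). The meaning of the numbers in the mouse labels was not given. All 6 Ctrl labels begin with 1 number, 5 of 6 βCat-GOF labels with another, and βCat-GOF mouse 5 with yet another, so a family or batch behind these numbers and the genotype cannot be told apart. Up to a suffix, 3 pairs of mice also share the rest of their label, namely Ctrl mice 1 and 2, Ctrl mice 3 and 4, and βCat-GOF mice 1 and 2. Each was counted as a separate mouse, and if a shared label marked 1 animal the number of animals would be smaller. βCat-GOF mice 1 and 2 stood apart from the other βCat-GOF mice in Kcnk9 and Kcnma1. Fold changes of the channel and pathway genes that turned direction or moved by over 1.5 times without that pair are therefore given both ways. For Cacna1c and Kcnmb1 the fold change is given over all mice only, so its stability without the pair is not shown. As CPM (counts scaled by the total of the library), a list of 7 zG markers summed to between 1316 and 2046 in Ctrl mice and between 1606 and 3574 in βCat-GOF mice. On the mean log2 CPM the zG list was 0.59 higher in βCat-GOF mice (exact permutation test, two-sided, p = 0.0325, adjusted p = 0.179 over 11 lists), and 6 of its 7 genes had the higher mean in βCat-GOF mice. Macrophage markers were 0.48 lower on that scale (exact permutation p = 0.0195, adjusted p = 0.179), with sums of 75.8 to 117.8 CPM in Ctrl and 66.2 to 108.3 CPM in βCat-GOF mice. Zona fasciculata markers were 0.44 higher (exact permutation p = 0.132, adjusted p = 0.29), with 3 genes higher and 1 lower. Their log2 fold changes were 1.49 for Akr1b7, 0.86 for Scarb1, 0.16 for Mc2r and -0.18 for Cyp11b1. Steroidogenic cortex markers were 0.32 higher, also with 3 genes higher and 1 lower (exact permutation p = 0.13, adjusted p = 0.29). Endothelium markers were 0.17 lower, with all 4 genes lower (exact permutation p = 0.0887, adjusted p = 0.29). Medulla markers were lower in 7 of 8 genes, with sums of 3907 to 12420 CPM in Ctrl and 4796 to 9036 CPM in βCat-GOF mice (difference -0.30 on the log2 scale, exact permutation p = 0.266). The marker lists were chosen with earlier results of these data known, so the p-values of the lists are a description. The part these cell types had in the channels' values was not tested.

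Of the 8 genes, 1 (Kcne4) lay past the cut-offs of a fold above 1.4, an adjusted p under 0.05 and a mean normalized count above 100 in the edgeR fit over all genes, where 2.35% of 14953 genes tested did (1.48% higher and 0.869% lower in βCat-GOF mice). Kcnj5, at a mean normalized count of 28.03, could not pass the limit on the count. All 8 entered the fit, 5 with a higher and 3 with a lower mean in βCat-GOF mice. Their median log2 fold change was 0.039, and that of all genes tested was 0.000105. None had groups that did not overlap, against 2.78% of all genes tested. Because the genes were chosen with this contrast in view, nothing is read from these counts.

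**Figure D1:**
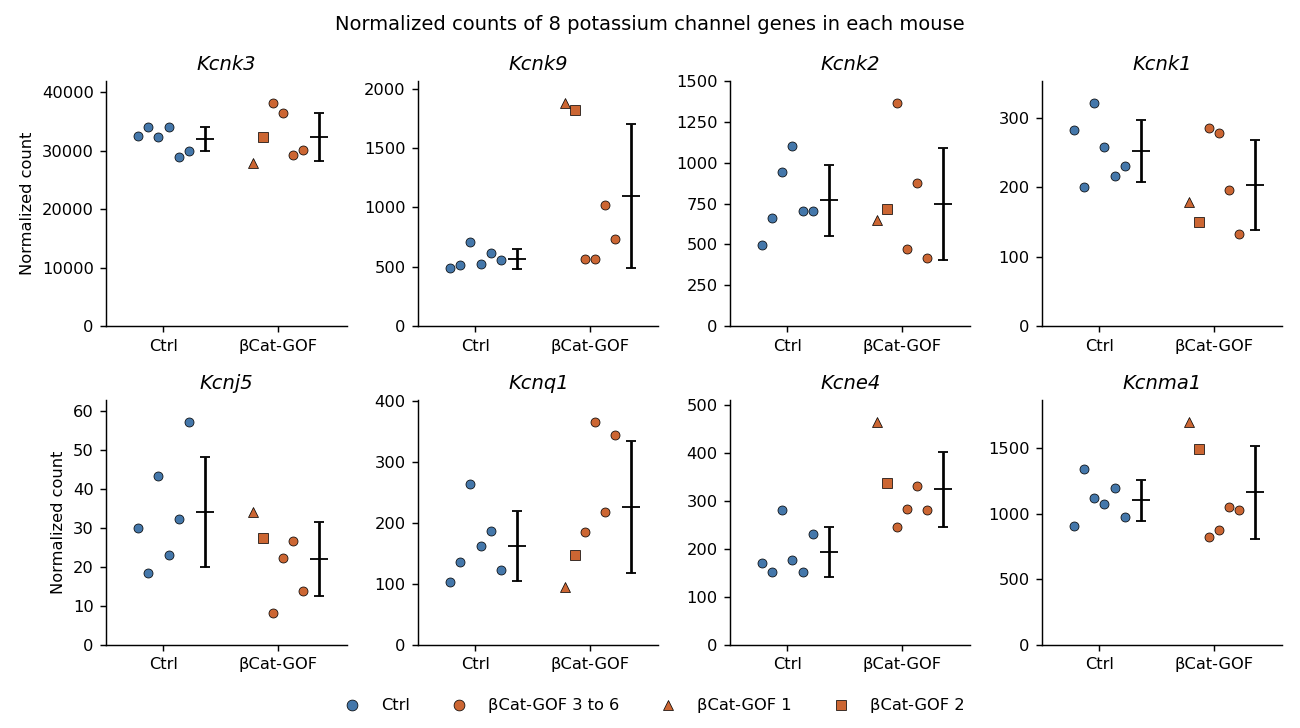
Normalized counts (linear axes from 0) of the 8 channel genes in each of 6 Ctrl and 6 βCat-GOF mice, with the group mean and SD drawn as a bar to the right of the points. βCat-GOF mice 1 (triangle) and 2 (square) are the highest for Kcnk9, at 1879 and 1821, and for Kcnma1, at 1700 and 1494, while in every panel the ranges of the groups overlap.

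Kcnk3 (TASK-1) and Kcnk9 (TASK-3) encode acid-sensitive tandem-pore channels that carry much of the resting potassium leak of zG cells, alone or paired with each other in 1 channel. Kcnk3 was the most abundant of the 8 genes and the most even between mice. Its normalized count ranged from 28950 to 34140 in Ctrl mice (median 32470) and from 27930 to 38130 in βCat-GOF mice (median 31270). The means were 32030 ± 2121 (SD, n = 6) and 32390 ± 4119 (SD, n = 6), a log2 fold change of 0.007 (SE 0.11; 0.05 without βCat-GOF mice 1 and 2), so the genotypes differed by far less than the mice within them.

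Kcnk9 had the largest fold change of the 8 genes and, in βCat-GOF mice, the largest coefficient of variation. In Ctrl mice its normalized count lay between 486.1 and 704.8, with a median of 538.3. In βCat-GOF mice it was 1879, 1821, 568.2, 567.8, 1017 and 733.7 in mice 1 to 6. Mice 1, 2, 5 and 6 were above every Ctrl mouse, while mice 3 and 4 lay inside the Ctrl range and close to its mean. The group means were 566.1 ± 81.6 and 1098 ± 606 (SD, n = 6 in both groups), for a log2 fold change of 0.96 (SE 0.30), and the coefficient of variation was 14.4% in Ctrl and 55.2% in βCat-GOF mice. Without βCat-GOF mice 1 and 2 the log2 fold change was 0.34, and leaving out any single mouse gave 0.74 to 1.08.

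The balance of these TASK genes was followed in each mouse as the ratio of their levels per length, CPM per kb of exons. The ratio of Kcnk3 to Kcnk9 was 142 to 207 in Ctrl mice, whereas in βCat-GOF mice it was 46.0, 55.0, 208, 199, 88.9 and 127 in mice 1 to 6. Mice 3 and 4 thus had a Kcnk3 to Kcnk9 ratio at the upper end of that of Ctrl mice, and the other 4 had a ratio below that of the lowest Ctrl mouse.

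Kcnk2 (TREK-1) encodes a tandem-pore channel that responds to stretch, temperature and fatty acids and is closed by protein kinase signalling. Its normalized count ran from 497.4 to 1105 in Ctrl mice (median 703) and from 417.9 to 1364 in βCat-GOF mice (median 682.6). βCat-GOF mouse 3 was the highest of all 12 mice, βCat-GOF mice 4 and 6 were the lowest, and the Ctrl mice lay between. The means were 769.6 ± 218 and 748.4 ± 344 (SD, n = 6 each), and the log2 fold change was -0.05 (SE 0.26), turning to 0.012 without βCat-GOF mice 1 and 2 and ranging from -0.31 to 0.08 when single mice were left out.

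Kcnk1 (TWIK-1) encodes a weakly conducting tandem-pore channel much of which resides inside cells. Its normalized count was 200.9 to 320.8 in Ctrl mice (median 244.4) and 178.6, 149.2, 285.4, 278.4, 195.2 and 132 in βCat-GOF mice 1 to 6. Mice 1, 2, 5 and 6 were below every Ctrl mouse, and mice 3 and 4 lay within the Ctrl range, the same split of the βCat-GOF mice as for Kcnk9 but in the opposite direction. The means were 251.5 ± 44.7 and 203.1 ± 64.9 (SD, n = 6 each), with a log2 fold change of -0.32 (SE 0.20) that stayed below 0 in all 19 alternative fits (other tools, scalings and filters, and fits without 1 or more mice). It was -0.19 without βCat-GOF mice 1 and 2 and -0.13 without the 3 mice whose labels repeat a stem.

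Kcnj5 (GIRK4) encodes an inward rectifier opened by G protein subunits and is the gene mutated in many aldosterone-producing adenomas. It was the least abundant of the 8, with 22 to 57 raw counts in Ctrl mice and 9 to 44 in βCat-GOF mice. Its normalized count was 18.3 to 57.3 in Ctrl mice (median 31.2) and 8.05 to 34.0 in βCat-GOF mice (median 24.4). βCat-GOF mice 3 and 6 were below every Ctrl mouse and none was above. The means were 34.1 ± 14.2 and 21.98 ± 9.55 (SD, n = 6 each) and the log2 fold change was -0.61 (SE 0.35), or -0.96 without βCat-GOF mice 1 and 2.

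Kcnq1 (Kv7.1) encodes a voltage-gated channel whose current is shaped by small accessory subunits of the Kcne family, and Kcne4 encodes the family member known to inhibit it. Kcnq1 had a normalized count of 102.1 to 262.9 in Ctrl mice (median 148.4) and of 94.3, 146.2, 184.3, 365.3, 216.9 and 343.3 in βCat-GOF mice 1 to 6. Mice 4 and 6 were the highest of the 12, and mouse 1 was the lowest. The means were 161.7 ± 57.9 and 225.1 ± 108 (SD, n = 6 in both groups), for a log2 fold change of 0.45 (SE 0.31). It was 0.76 without βCat-GOF mice 1 and 2, 0.26 without βCat-GOF mouse 4 and 0.29 without βCat-GOF mouse 6.

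The normalized count of Kcne4 was 169.5, 150.9, 280.4, 176.5, 151.8 and 231.9 in Ctrl mice 1 to 6 and 465.3, 338.3, 245.2, 283.1, 332.2 and 280.1 in βCat-GOF mice 1 to 6. All 6 βCat-GOF mice were above the Ctrl mean, and 4 were above the highest Ctrl mouse. The means were 193.5 ± 51.9 and 324 ± 77.5 (SD, n = 6 in both groups), for a log2 fold change of 0.74 (SE 0.19), or 1.67-fold. The direction held in all 19 alternative fits, in which the log2 fold change was 0.55 to 0.89, but the gene was past the cut-offs in 7 of the 19 and in 2 of the 12 that left out 1 mouse, those without Ctrl mouse 3 and without βCat-GOF mouse 3. Without βCat-GOF mice 1 and 2 it was 0.55 and was not past them.

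Kcnma1 (BK) encodes the pore of the large-conductance channel opened by calcium and voltage. Its normalized count was 904.9 to 1341 in Ctrl mice (median 1097) and 1700, 1494, 824.1, 871.4, 1046 and 1029 in βCat-GOF mice 1 to 6. Mice 1 and 2 were above every Ctrl mouse, mice 3 and 4 were below every Ctrl mouse, and mice 5 and 6 lay among them. The means were 1102 ± 157 and 1161 ± 355 (SD, n = 6 in both groups), for a log2 fold change of 0.07 (SE 0.18) that was -0.24 without βCat-GOF mice 1 and 2 and -0.068 without mouse 1 alone. A mean close to that of the controls therefore joined mice on both sides of the Ctrl range.

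Levels between the genes were compared per length, as CPM per kb of exons, with the exon lengths of GENCODE M21. In Ctrl mice Kcnk3 was at 410 ± 28.5 (SD, n = 6), rank 52 of 14827 genes with a length, and its mean was 51.6 times that of the next gene. It was followed by Kcnk2 at 7.94 ± 2.29, Kcnk1 at 5.72 ± 0.981, Kcne4 at 3.71 ± 1.00, Kcnma1 at 3.31 ± 0.525, Kcnk9 at 2.35 ± 0.357, Kcnq1 at 2.02 ± 0.736 and Kcnj5 at 0.370 ± 0.154. Kcnk3 alone was 94.2% ± 0.913 of the summed level of the 8 in Ctrl mice and 93.3% ± 1.25 in βCat-GOF mice (SD, n = 6 each). Of the 7 neighbours in this order, only Kcnk3 with Kcnk2 and Kcnq1 with Kcnj5 had ranges over mice that did not overlap. Within single mice Kcnk1 exceeded Kcne4 and Kcnma1 exceeded Kcnk9 in 6 of 6 Ctrl mice, Kcnk2 exceeded Kcnk1 and Kcnk9 exceeded Kcnq1 in 5 of 6, and Kcne4 exceeded Kcnma1 in 4 of 6.

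In βCat-GOF mice the order on the same scale was Kcnk3 at 396.6, Kcnk2 at 7.36, Kcne4 at 6.07, Kcnk9 at 4.53, Kcnk1 at 4.41, Kcnma1 at 3.42, Kcnq1 at 2.63 and Kcnj5 at 0.236. Again the gaps at the top and the bottom were the only ones with ranges that did not overlap, and in the middle 3 of the 5 pairs of neighbours were in this order in only 3 of 6 mice. The level of Kcnk9 rests on its annotated exons of 12300 bases, far more than the 2235 of Kcnk1, and a shorter transcript in the adrenal would raise it. With the longest transcript of each gene as its length, 4 of the 8 changed place in the Ctrl order.

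**Figure D2:**
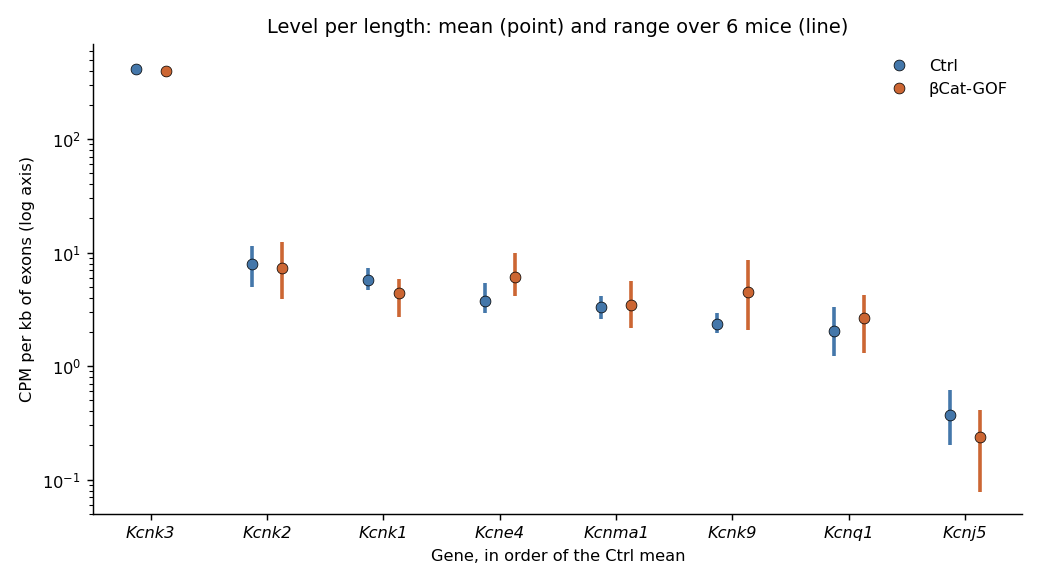
Level per length on a log axis, in CPM per kb of exons, for each gene in Ctrl and βCat-GOF mice. Points are means and lines the range over 6 mice, and Kcnk3, at 410 in Ctrl mice, lies far above the other genes, which run from 7.94 for Kcnk2 to 0.370 for Kcnj5.

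The genes lie on 7 chromosomes of the mouse genome (GRCm38). Kcne4 at chr1:78816758-78820028 and Kcnk2 at chr1:189207930-189402273 share chromosome 1, Kcnk3 is at chr5:30588170-30625271, Kcnq1 at chr7:143106362-143427042, Kcnk1 at chr8:125995170-126030685, Kcnj5 at chr9:32314707-32344350, Kcnma1 at chr14:23289431-24014491 and Kcnk9 at chr15:72501089-72546340. Exons of 5 of them overlap an annotated RNA on the opposite strand, which covers 12.2% of the exon bases of Kcnk2 (A430027H14Rik), 8.01% of Kcnk1 (Gm45875), 5.99% of Kcnma1 (4930519K11Rik), 5.76% of Kcnk3 (Gm9899) and 2.96% of Kcnq1 (Kcnq1ot1). Whether the counting used strand was not stated, so reads from these partners cannot be told apart from those of the channels. No exon of Kcnk9, Kcnj5 or Kcne4 overlapped another gene, and 0 of the 8 had a near-identical copy elsewhere over at least 10% of the transcript.

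How the genes varied from mouse to mouse was examined in deviations of log2 CPM from the mean of each group. These leave out the difference between the group means, but the SE and p of the contrast depend on the same spread within groups. Each of the 8 genes was related to the mean of each of 11 cell type marker lists and to the other 7 genes, 116 relations in all, with a permutation test within groups (100000 resamples, two-sided) and Benjamini-Hochberg adjustment over the 116. By Pearson's r 9 relations had an adjusted p under 0.05, and by Spearman's rho 6 did. Both sides of a relation come from the same library, and the part that the cell make-up of each gland had in it was not tested.

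Kcnk1 followed the macrophage markers Adgre1, Cd68 and Csf1r. Pearson's r was 0.865 and Spearman's rho 0.895 over 12 mice (permutation p = 0.00041 and 0.00037, adjusted p = 0.0238 and 0.0215), with r = 0.837 without the 2 mice farthest out in the markers. The relation was present in both groups, at r = 0.818 in the 6 Ctrl and r = 0.937 in the 6 βCat-GOF mice, and r was 0.841 without βCat-GOF mice 1 and 2. Kcnk1 and the macrophage list both had the lower mean in βCat-GOF mice. Among the markers Adgre1 fell, from 359 ± 76.9 to 210 ± 60.0 normalized counts (edgeR, log2 fold change -0.78, adjusted p = 0.046), whereas Csf1r was at 1037 ± 141 and 1124 ± 260 and did not pass the test.

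Kcnk9 ran against the steroidogenic cortex list of Nr5a1, Cyp11a1, Star and Fdx1, the genes of steroid output in all cortical zones. Pearson's r was -0.846 and Spearman's rho -0.874 over 12 mice (permutation p = 0.00038 and 0.00145, adjusted p = 0.0238 and 0.0435), and r stayed at -0.845 without the 2 mice farthest out and was -0.718 without βCat-GOF mice 1 and 2. Within groups r was -0.734 in Ctrl and -0.861 in βCat-GOF mice. Kcnk9 also had r = 0.769 with the zG markers (permutation p = 0.00993, adjusted p = 0.0768) and r = -0.894 with the zona fasciculata markers Cyp11b1, Akr1b7, Mc2r and Scarb1 (permutation p = 0.00849, adjusted p = 0.0713), both short of the threshold after adjustment. The zona fasciculata relation was not seen in Ctrl mice, with r = 0.016, and rested on the βCat-GOF mice, with r = -0.928. βCat-GOF mice 1 and 2, in which Kcnk9 was highest, had the highest zG marker sums, 3574 and 3088 CPM, and the lowest zona fasciculata sums, 10980 and 13830 CPM. On the mean log2 CPM, the measure behind r, their zona fasciculata markers were at 10.467 and 11.059, beside a Ctrl mean of 11.058. Mouse 2 was thus low in the sum but level with the Ctrl mean on the log2 scale.

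Kcnma1 varied with Kcnk9. Pearson's r was 0.882 and Spearman's rho 0.832 over 12 mice (permutation p = 0.00331 and 0.0053, adjusted p = 0.0427 and 0.0615). The 2 mice farthest out were βCat-GOF mice 1 and 2, and r fell to 0.524 without them, so the relation rested in large part on that pair. In Ctrl mice alone r was 0.288. Kcnma1 also ran against the steroidogenic cortex list, with r = -0.835 and rho = -0.79 (permutation p = 0.00308 and 0.011, adjusted p = 0.0427 and 0.0855). That relation was r = -0.806 without the 2 mice farthest out in the list, -0.494 without βCat-GOF mice 1 and 2, -0.443 in Ctrl and -0.909 in βCat-GOF mice.

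Kcne4 and Kcnj5 varied together although 1 had the higher and the other the lower mean in βCat-GOF mice. Pearson's r was 0.807 and Spearman's rho 0.909 (permutation p = 0.00305 and 0.00028, adjusted p = 0.0427 and 0.0215), with r = 0.857 without the 2 mice farthest out and 0.755 in Ctrl and 0.864 in βCat-GOF mice. Both followed the zG markers, Kcnj5 with r = 0.839 and rho = 0.804 (permutation p = 0.00227 and 0.00461, adjusted p = 0.0427 and 0.0615) and Kcne4 with r = 0.768 and rho = 0.846 (permutation p = 0.00488 and 0.0015, adjusted p = 0.0566 and 0.0435). Without the 2 mice farthest out these were r = 0.603 and r = 0.769. Kcnj5 also followed the capsule markers Gli1, Rspo3, Pdgfra and Nr2f2, with r = 0.837 and rho = 0.846 (permutation p = 0.00248 and 0.00196, adjusted p = 0.0427 and 0.0455) and r = 0.759 without the 2 mice farthest out. Kcne4 varied with Kcnk9, with r = 0.694 and rho = 0.727 (permutation p = 0.0022 and 0.0105, adjusted p = 0.0427 and 0.0855) and r = 0.527 without the 2 mice farthest out. Kcne4 ran against the steroidogenic cortex list, with r = -0.797 and rho = -0.755 (permutation p = 0.0008 and 0.00237, adjusted p = 0.0309 and 0.0458), which weakened to r = -0.596 without the 2 mice farthest out.

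Of the other members Kcnk3, the most abundant, had r = -0.705 with the zG markers, from -0.363 in Ctrl and -0.81 in βCat-GOF mice (permutation p = 0.0254, adjusted p = 0.173). With the capsule markers Kcnk3 had r = -0.788 and rho = -0.797 (permutation p = 0.00751 and 0.00833, adjusted p = 0.0713 and 0.0855), short of the threshold. That relation was r = -0.853 in Ctrl and -0.767 in βCat-GOF mice. Kcnq1 had r = 0.771 with the zona fasciculata markers, from -0.011 in Ctrl and 0.935 in βCat-GOF mice (permutation p = 0.00742, adjusted p = 0.0713). Whole-gland levels thus ran with the zG markers for Kcnj5 by Pearson's r but not by rank, and for Kcne4 by rank but not by r. For Kcnk9 the relation was short of the threshold. Levels did not run detectably upward with these markers for Kcnk1, Kcnk2, Kcnk3, Kcnq1 or Kcnma1. The grouping as zG channels could therefore not be checked for those genes in these data.

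**Figure D3:**
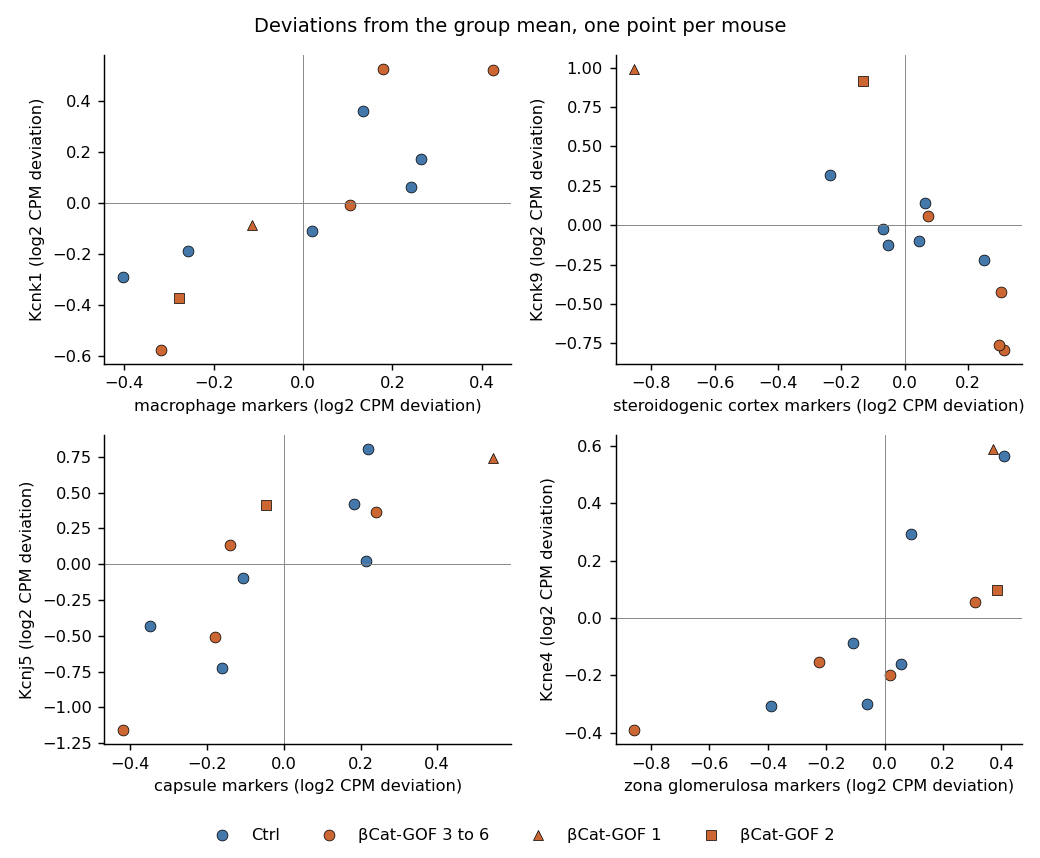
Deviation of a channel gene from its group mean against that of a marker list, both in log2 CPM, with 1 point per mouse and the βCat-GOF mice 1 and 2 as triangle and square. Kcnk1 is higher where macrophage markers are (r = 0.865), Kcnj5 where capsule markers are (r = 0.837) and Kcne4 where zG markers are (r = 0.768), and Kcnk9 is lower where steroidogenic cortex markers are higher (r = -0.846). The r of Kcne4 is short of the threshold after adjustment, which its rho of 0.846 passes.

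Among all genes with a mean normalized count above 100, those most like each channel gene were found by Pearson's r of the same deviations over 12 mice, as a description with no test. Kcnk9 was closest to Fam13c (0.967), Plxnc1 (0.965) and Intu (0.959), and Kcnma1 to Rbfox2 (0.979), Kat6b (0.975) and Arhgap44 (0.959). Kcne4 was closest to Ctxn3 (0.964), Pdgfa (0.945) and Tspan6 (0.921), and Kcnj5 to Adgra2 (0.952), Gpc3 (0.951) and Scarf2 (0.943). For Kcnk1 they were Vcpkmt (0.972), Ppp2r4 (0.945) and Rp9 (0.943), and for Kcnq1 Brix1 (0.898), Mapkapk2 (0.892) and Cdr2 (0.889). Kcnk2 was closest to A530016L24Rik (0.908), Pygl (0.895) and Mmd (0.879), and Kcnk3 to Arf3 (0.876), DHRSX (0.867) and Slc25a1 (0.862).

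The remaining genes with a symbol starting with Kcn were 90, of which 50 had enough counts to be tested. Their means were higher in βCat-GOF mice for 12 and lower for 38, with a median log2 fold change of -0.32, where all genes tested had 7481 higher, 7472 lower and a median of 0.000105. The 2 sets differ in abundance, since 20 of the 50 had a mean normalized count above 100, against 11431 of 14953 genes tested. The part of low counts in the split was not tested. At an unadjusted p under 0.05 in edgeR there were 5 higher and 13 lower, which are 10% and 26% of the 50 beside 9.73% and 10.7% of all genes. In each direction 1 was past the cut-offs, beside 1.48% and 0.869% of all genes. A smaller share of the 50 reached the limit on the mean count, so the shares past the cut-offs cannot be set side by side. Medulla markers also had the lower mean in 7 of 8 genes, and their part in this list was not tested.

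The gene that rose was Kcnd2 (Kv4.2), which encodes a fast inactivating A-type channel. Its normalized count was 97.8 to 165.8 in Ctrl mice and 170.8 to 296.7 in βCat-GOF mice, groups that did not overlap. The log2 fold change was 0.81 (SE 0.16; edgeR, adjusted p = 0.0109), and it was past the cut-offs in each fit that left out 1 mouse (adjusted p = 0.00676 to 0.0307). The gene that fell was Kcnj10 (Kir4.1), an inward rectifier best known from glia, which went from 134.3 ± 28.1 to 77.6 ± 20.97 (SD, n = 6 each; log2 fold change -0.80, SE 0.21, adjusted p = 0.0492) and was past the cut-offs in 3 of 12 fits without 1 mouse, those without Ctrl mouse 1, βCat-GOF mouse 1 and βCat-GOF mouse 4 (adjusted p over the 12 fits 0.0329 to 0.107). Kcnmb1, an accessory subunit of the Kcnma1 channel that is typical of smooth muscle, had an adjusted p of 0.0492 in edgeR at a log2 fold change of -0.94, but its mean count of 17.9 was below the limit, and it is named after its value was seen.

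By kind of channel, 24 voltage-gated genes were tested with 7 higher and 17 lower, and 9 accessory subunits with 2 higher and 7 lower. There were 7 inward rectifiers with 2 higher and 5 lower, and 3 tandem-pore genes with 1 higher and 2 lower. The last 7, with symbols starting with Kcnn, Kcnt or Kcnu, were all lower. They were grouped by symbol as opened by calcium or sodium, which was not checked for Kcnu1. Kcnu1, named after its value was seen, had the strongest edgeR result of these 7. None of the last 7 passed the test, and 1 had an unadjusted p under 0.05 in edgeR.

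Outside the 8 genes the most abundant channel in Ctrl mice per length was Kcnn2 (SK2), opened by calcium, at 21.01 ± 2.67 CPM per kb, with a log2 fold change of -0.06 (edgeR, adjusted p = 0.762; -0.03 without βCat-GOF mice 1 and 2). Kcnh2 (ERG1) followed at 8.30 ± 1.26 with a log2 fold change of -0.19 (edgeR, adjusted p = 0.646), which was -0.49 without βCat-GOF mice 1 and 2 (adjusted p = 0.0785, and 0.294 to 0.848 without single mice). Kcnj8 (Kir6.1) was at 5.26 ± 1.37 with a log2 fold change of -0.13 (edgeR, adjusted p = 0.726) and Kcnc4 (Kv3.4) at 4.40 ± 1.67 with -0.61 (adjusted p = 0.228). Kcnk5 (TASK-2), a tandem-pore channel opened at alkaline pH, was at 6.53 ± 4.11. Its normalized count was 437.6 ± 274 in Ctrl and 1029 ± 831 in βCat-GOF mice (SD, n = 6 in both groups), for a log2 fold change of 1.22 (SE 0.54) that did not pass the test (edgeR, adjusted p = 0.223). In mean level per length Kcnn2 stood above every one of the 8 genes except Kcnk3, and Kcnh2 exceeded Kcnk2 by less than the SD of either.

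**Figure D4:**
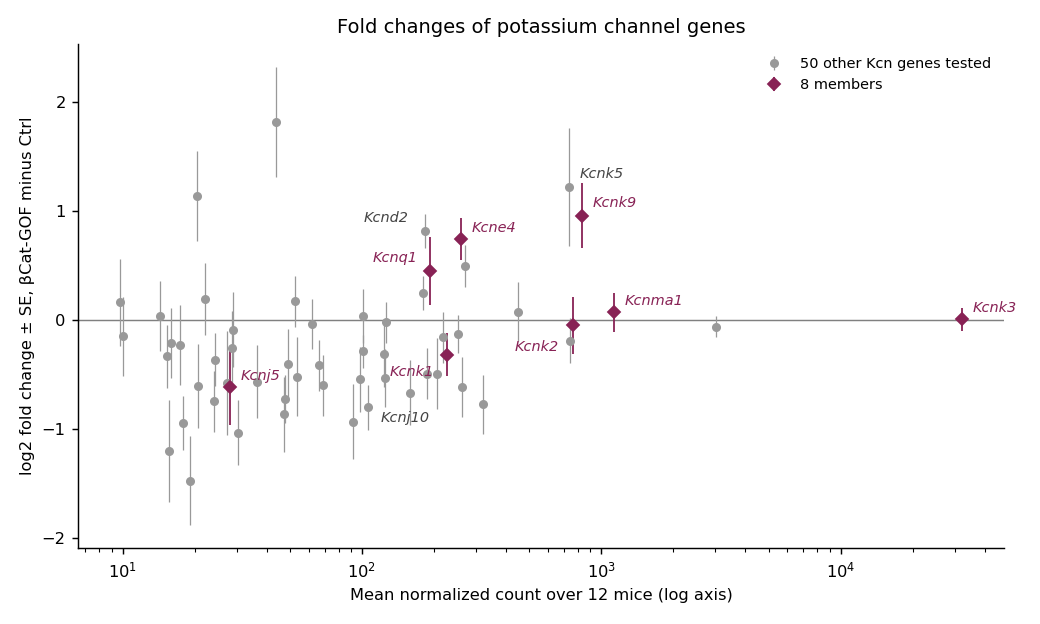
log2 fold change with its SE, βCat-GOF minus Ctrl, against the mean normalized count over 12 mice on a log axis, for the 8 members (diamonds) and 50 other Kcn genes tested (grey points). Kcnk9 at 0.96 and Kcne4 at 0.74 lie highest among the members, Kcnk3 lies at 0.007, and 38 of the 50 other genes lie below 0.

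Of a list of 31 genes for the angiotensin II, calcium and aldosterone steps around these channels, 30 were tested. All 30 had a mean normalized count above 100, against 11431 of all 14953 genes tested. The means of the 30 were higher in βCat-GOF mice for 12 and lower for 18, with a median log2 fold change of -0.019. Past the cut-offs were 2, both higher, where 1.48% of all genes were. Both were receptors for angiotensin II, the hormone that closes the leak channels. Agtr1a rose from 3399 ± 550 to 6345 ± 1627 normalized counts (SD, n = 6 each; edgeR, log2 fold change 0.89, adjusted p = 0.00581), and Agtr1b rose from 470.5 ± 174 to 1383 ± 401 (log2 fold change 1.56, adjusted p = 0.00413). In both the groups did not overlap, and both also stand in the zG marker list.

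Of the voltage-gated calcium channels in the list, Cacna1g was not tested for its low counts and the other 3 did not pass the test. Cacna1h (T-type) was at 2763 ± 770 and 3569 ± 1596 (log2 fold change 0.37; edgeR, adjusted p = 0.474; -0.095 without βCat-GOF mice 1 and 2), Cacna1d (L-type) at 588.7 ± 186 and 528.5 ± 203 (log2 fold change -0.16, adjusted p = 0.787; -0.57 without that pair), and Cacna1c (L-type) had a log2 fold change of 0.27 (adjusted p = 0.44). Cyp11b2, the enzyme that makes aldosterone and the gene whose locus carries the Cre, was at 5162 ± 2063 and 4544 ± 2824 (SD, n = 6 each; edgeR, log2 fold change -0.18, SE 0.36, adjusted p = 0.82). Without βCat-GOF mice 1 and 2 it was -0.88 (SE 0.28, adjusted p = 0.062), and without single mice -0.51 to -0.008 (adjusted p = 0.397 to 0.995). In the list, 0 genes were past the cut-offs in the lower direction, and at an unadjusted p under 0.05 in edgeR there were 4 higher and 3 lower, 13.3% and 10% of the 30, beside the 9.73% and 10.7% of all genes.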

How the data were processed

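RNA-seq libraries of whole adrenals, 1 per mouse (6 Ctrl, 6 βCat-GOF), were prepared from polyadenylated RNA. The authors trimmed adapters with cutadapt, aligned reads to mm10 with STAR and deposited raw counts per gene made with featureCounts 1.4.4. They also deposited a signal, the same counts divided by 1 factor per library from DESeq2 1.6.3. The gene symbols were read from that second table, and 966 identifiers had none. Every column was assigned to a mouse (0 without a sample). The members and all gene lists were chosen with earlier results of these data known.

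Genes were tested on the counts with edgeR 4.0.16 (R 4.3.3, TMM, filterByExpr, two-sided quasi-likelihood test), and p-values were adjusted by Benjamini-Hochberg across the 14953 genes tested. A call needed a fold above 1.4, an adjusted p under 0.05 and a mean normalized count above 100. SE is the log2 fold change divided by the root of F. Normalized counts are counts over median-of-ratios factors, computed again from the counts. Log2 CPM used a prior count of 2. Lengths and positions came from GENCODE M21 (GRCm38) for 37693 identifiers. Copies were sought with blastn 2.17.0 at 95% identity. On simulated counts edgeR recovered 89 of 100 genes changed by 2-fold and 100 of 100 changed by 3-fold, with 4 false calls among 14837 genes. DESeq2 recovered 93 of 100 and 100 of 100, with 30 false calls among 14952 genes. Both were counted at an adjusted p under 0.05 alone. The changed genes all had a mean above 100, and each gene was given the same spread in both groups. The recovery therefore does not carry over to Kcnj5, with its low counts, or to genes more variable in βCat-GOF mice, such as Kcnk9. Marker lists and depth were compared with exact permutation tests over 6 against 6 mice, whose smallest p is 0.00216. Correlations of within-group deviations and the fit without βCat-GOF mice 1 and 2 were added after the data were seen. The genes named were the 8 members, other Kcn genes past the cut-offs and the 5 of these with the highest level per length in controls, pathway genes past the cut-offs with Cyp11b2, Cacna1h and Cacna1d, and the 3 genes most like each member. P-values of the contrast set the difference between the groups against the variation between libraries, each counted as a separate mouse, and depth limits the precision by counting error. The alternatives were DESeq2 1.42.0, other factors and filters, and leaving mice out.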

Additional observations from a re-analysis of the deposited data

How the results depend on the processing

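No paired analysis was possible because the mouse labels share no replicate number between the groups. Members past the cut-offs were 1, and became 2 with DESeq2 (Kcne4 and Kcnk9, the latter at a log2 fold change of 0.96), 0 with no filter on low counts, 0 without βCat-GOF mouse 5, whose label begins with another number, 0 without βCat-GOF mice 1 and 2, and 0 to 1 when each mouse was left out. Other Kcn genes past the cut-offs were 2, and became 1 with no filter, 1 without βCat-GOF mouse 5, 5 without βCat-GOF mice 1 and 2 and 1 to 3 without each mouse. Genes of the aldosterone pathway list past the cut-offs were 2, and became 4 without βCat-GOF mice 1 and 2 and stayed at 2 to 3 without each mouse. Over all genes, 222 were higher and 130 lower past the cut-offs. These were 363 and 283 with DESeq2, 440 and 470 without βCat-GOF mice 1 and 2, and 146 to 340 and 61 to 223 without each mouse, with the extremes without Ctrl mouse 6 and without βCat-GOF mouse 1. The lower genes were 80 without βCat-GOF mouse 5, 228 without the 3 mice whose labels repeat a stem and 228 at an adjusted p under 0.05 alone. The cause of these changes was not tested, apart from the looser limits of the adjusted p alone. The fits with median-of-ratios or the deposited factors and with at least 10 counts in every mouse kept the counts within 1.5 times of these. Under the filter of 10 counts Kcnj5 was not tested.

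The sign of the log2 fold change was the same in all 19 alternative fits for Kcnk9, Kcnk1, Kcnq1 and Kcne4 and in all 18 for Kcnj5, while Kcnk3 and Kcnma1 were above 0 in 15 of 19 and Kcnk2 below 0 in 14 of 19. With deviations from the mean of all 12 mice, 2 of the 3 genes most like Kcnma1 were the same, 1 of 3 for Kcnk3, Kcnk1, Kcnj5 and Kcne4, and 0 of 3 for Kcnk9, Kcnk2 and Kcnq1. Depth limits Kcnj5 most, with 9 to 57 raw counts per mouse.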
